A study of Saccharomyces cerevisiae with 5 samples.

Results

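The centre of the ARS315 ring, positions 451 to 840, holds the nucleosome-free region (NFR) of this replication origin and the flank on its + side, out to the linker at 721 to 810. It was taken as 390 of the 1237 positions of the ring, counted from 1 at the first base of the deposited profile, and was read as 13 of the 152 windows of 30 bp into which the rings of the study's 4 origins were divided. For each position the shares of methylated forward and reverse reads were added and divided by the mean of a reconstituted nucleosomal array that was methylated with the rings of the same library. This array-scaled value is called the level here, and a level of 1 means as much methylation as the average position of that array. The stretch was divided, by position, into the left shoulder (451 to 480), the NFR (481 to 600), the + side (601 to 720), the linker (721 to 810) and the right flank (811 to 840).

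In MATAC-seq, purified chromatin is treated with DNA methyltransferases that reach accessible bases, and methylated bases are then read on single DNA molecules by Nanopore sequencing. EcoGII methylates adenine, M.CviPI cytosine in GpC and M.SssI cytosine in CpG. Rings of 4 strains, 1 for each origin, were excised by site-specific recombination in cells held in G1 by alpha-factor with 2% galactose, and the strains of a genotype were pooled into 1 library. There was 1 wildtype library, which carries the label of replicate 2, and there were 2 libraries each of the isw2 deletion and the ies6 deletion. The strain with the ARS315 ring was MATa, ura3delta0, leu2delta0, his3delta1, met15delta0 and bar1::kanMX4 in every group. It carried recombination sites and a LexA binding site outside the outermost nucleosomes kept on either side of ARS315, together with LEU2, a LexA-TAP fusion under pTEF2 and R recombinase under pGAL1-10 on chromosome I. The mutants carried isw2delta::ura3 or an ies6 deletion marked with his in addition, and the wildtype kept both genes. Each genotype was represented at ARS315 by 1 strain, and further wildtype libraries were not analysed here. The paper describes its profiles as coming from 2 biological replicates. The labels do not say whether the libraries of a mutant came from separate cultures, so the p-values measure the spread between these libraries, part of which may be technical.

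Every ARS315 library held 780 forward and 780 reverse reads, except 697 forward reads in wildtype. The array was methylated at 6.96% of positions per library mean in wildtype, at 12.2% and 11.8% in the isw2Δ replicates 1 and 2, and at 10.2% and 9.02% in the ies6Δ replicates 1 and 2. On a naked plasmid spike-in the same measure was 24.95% in wildtype and 32.96% to 34.8% in the mutants. Over all positions of either spike-in the wildtype library was thus methylated less than every mutant library. Unscaled shares given here are not corrected for this difference. At the known CpG or GpC pairs of the ring, given below, wildtype was higher than every mutant library. Both mutants were set against the same wildtype library, so the 2 comparisons with wildtype share their control.

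Yeast replication origins are bound by the origin recognition complex (ORC) at the ARS consensus sequence, an AT-rich element that is poor in nucleosomes, and the nucleosomes that border this gap help ORC to load the replicative helicase. The study names as the + side of an origin the flank nearest to the T-rich strand of this element. Isw2 is the ATPase of the ISW2 remodeler, which is known in yeast to slide nucleosomes towards nucleosome-free regions, and Ies6 is a subunit of INO80, a remodeler known for setting the spacing and position of nucleosomes next to such gaps.

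The base sequence of most of the stretch was not used here. The order of bases was taken from a pair of designed oligonucleotides, the primers of the ARS315 hybridisation probe, at the sites where they were placed. They are shown because they separate the adenine signal from the cytosine signal in these libraries. Capitals mark A and T, whose base pairs carry an adenine for EcoGII, and lower case marks g and c. Both sequences are printed as the top strand of the ring. The + side primer itself lies on the bottom strand and is thus shown as its reverse complement.
Left primer, top strand, positions 444 to 466: TgTgTgTTTgTATAcTcTgTggg
+ side primer, bottom strand, positions 673 to 693: AcAcAAgTgTTTTgccgcTTA
The sites were found by the strand of the calls (forward reads carry calls at A and C, reverse reads at T and G). An oligonucleotide was kept only if a single place of the ring had the strand called for at 100% of its bases. The 100% was thus set by this choice and is no separate check of the placement. At the next best position of the ring the match was 87% and 90.5%.

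At the 13 A:T pairs of the left primer the methylated share was 10.9% in wildtype, 26.4% and 26.3% in the isw2Δ libraries and 23.4% and 21.2% in the ies6Δ libraries. At the 12 A:T pairs of the + side primer it was 10.1% in wildtype, 21.8% and 24.1% (isw2Δ) and 19.3% and 13.2% (ies6Δ). The A:T pairs were thus higher in all mutant libraries at both sites, in unscaled percent. The 5 known C:G pairs of the stretch that lie in CpG or GpC went the other way, with 6.28% in wildtype, 2.69% and 4.59% in the isw2Δ libraries and 2.87% and 3.23% in the ies6Δ libraries. A further designed oligonucleotide outside the stretch brought the known bases of the ring to 47 A:T pairs and 19 pairs in CpG or GpC, where the shares were 11.8% and 10.8% in wildtype, 31.2% and 3.00% in isw2Δ replicate 1, 31.2% and 4.72% in isw2Δ replicate 2, 22.6% and 2.71% in ies6Δ replicate 1, and 19.2% and 2.45% in ies6Δ replicate 2. Within the stretch alone the 21 known A:T pairs had 10.2% in wildtype, against the 6.28% at CpG or GpC. The ratio of CpG or GpC to A:T methylation was thus higher in wildtype than in every mutant library. With 1 wildtype library, a difference of genotype and a difference in the activity or calling of the enzymes between libraries cannot be told apart, and a change in level at a given position depends on which base it holds.

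**Figure D1:**
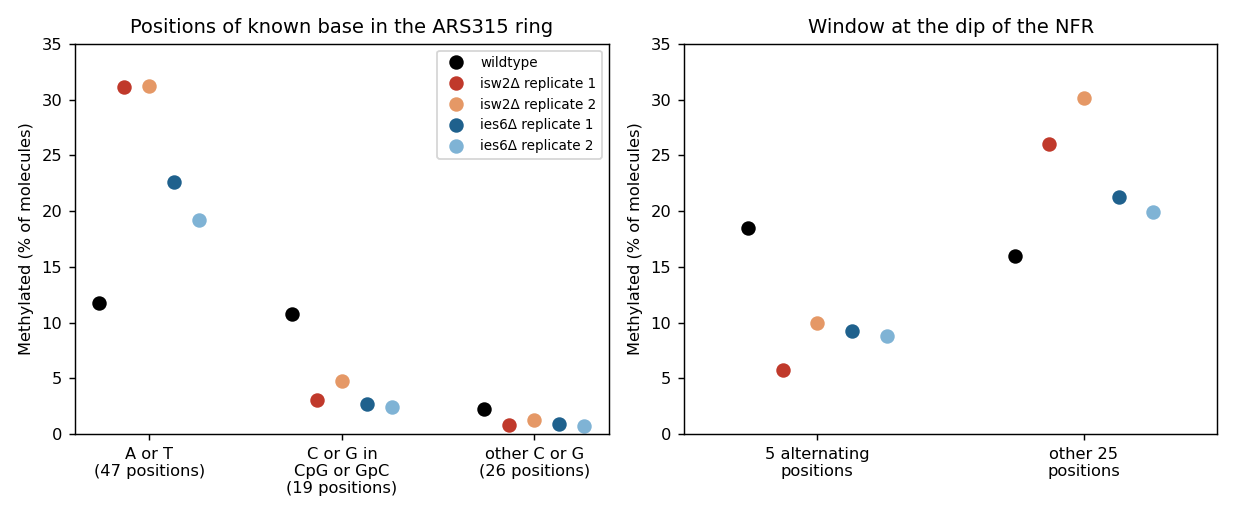
Methylated share in percent at ring positions of known base, by base type and library, with the mean of each type shown. A:T pairs are higher in the 4 mutant libraries than in wildtype and CpG or GpC pairs are lower.

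A position whose neighbours on both sides are called on its own strand cannot lie in CpG or GpC, and 131 of the 390 positions met this condition. Window levels over such positions only, with the array treated alike, are given below where they change a result. This restriction was chosen after the data had been seen.

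The profile of the stretch had the same outline in all 5 libraries. An NFR with 2 summits and a dip between them stood on the left, a low stretch followed on the + side, a lower summit lay in the linker, and the right flank was the least methylated part. The level of the NFR was 2.37 in wildtype, 2.41 and 2.54 (isw2Δ) and 2.45 and 2.71 (ies6Δ). The + side lay at 1.003 in wildtype, 1.20 and 1.26 in the isw2Δ libraries and 1.23 and 1.03 in the ies6Δ libraries. The linker lay at 1.02 in wildtype, 1.07 and 1.20 (isw2Δ) and 1.30 and 1.28 (ies6Δ). The NFR thus stood far above its + side flank in every library, and the + side and the linker of wildtype differed little from the array. The right flank was at 0.594 in wildtype and at 0.655 to 0.727 in the mutants.

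Ranked among all 152 windows of the same library, the window at 541 to 570 ranked 5 in wildtype and in isw2Δ replicate 2 and 4 in the other libraries. The window at 631 to 660 ranked 133 in wildtype and between 109 and 121 in the mutants, and the right flank ranked between 137 and 143 in all libraries. The stretch therefore spanned nearly the full range of accessibility seen on the 4 rings.

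**Figure D2:**
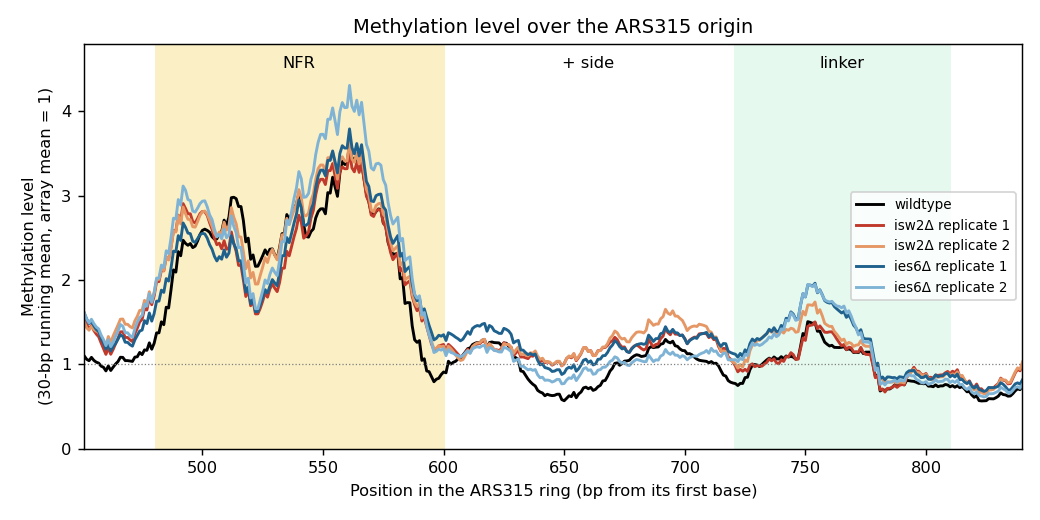
Array-scaled level of methylation as a 30-bp running mean against position in the ARS315 ring, with 1 line per library. The summit at 561 and the trough near 650 lie at the same place in all 5 libraries, and the linker summit is highest in the 2 ies6Δ libraries.

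The shape of the NFR was read from a 30-bp running mean. The higher summit lay at position 561 in all libraries, at levels of 3.63 in wildtype, 3.53 and 3.64 in the isw2Δ libraries and 3.79 and 4.31 in the ies6Δ libraries. The lower summit lay at position 492 in the mutants, with levels of 2.91 and 2.87 in isw2Δ and 2.68 and 3.12 in ies6Δ. In wildtype the running mean was 2.47 at position 492 and rose further to 2.98 at position 513. The higher summit was thus alike in place in all genotypes in this running mean. In isw2Δ replicate 2 the running mean was 2.87 at 492 and nearly the same, 2.86, at 512. Over positions between neighbours of the same strand the lower summit lay at 508 in ies6Δ replicate 1 and at 500 in all other libraries. A difference between genotypes in the place of the lower summit was therefore not shown.

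The dip between the summits was at position 522 in every library. Its level was 2.16 in wildtype, 1.599 and 1.95 (isw2Δ) and 1.63 and 1.66 (ies6Δ), so that wildtype had the shallowest dip. As a ratio to the higher summit it was 0.596 in wildtype, 0.453 and 0.537 in the isw2Δ libraries and 0.429 and 0.385 in the ies6Δ libraries. On reverse reads alone the order was different, with ratios of 0.321 in wildtype, 0.382 and 0.441 (isw2Δ) and 0.348 and 0.312 (ies6Δ). The lowest point on reverse reads lay at 542 in wildtype and at 520 in the mutants, so these ratios compare different places. The width of the NFR followed the dip. At mid-height of the higher summit of each library, measured from 0, it was 97 bp in wildtype and 108 bp in isw2Δ replicate 2, where the region ran across the dip, and 62, 60 and 55 bp in the other libraries, where its left edge fell inside the dip at 526 to 532. At a fixed level of 1.5, which the dip did not reach in any library, it was 102 bp in wildtype and 116 to 121 bp in the mutants, with right edges at 586 in wildtype and 592 or 593 in the mutants.

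Most of the difference in the dip came from 5 positions, 527 to 531, each of which is called on the other strand than its neighbours, so that all of them may lie in CpG or GpC. Their mean methylated share was 18.4% in wildtype, 5.72% and 9.92% in the isw2Δ libraries and 9.28% and 8.82% in the ies6Δ libraries. The other 25 positions of the window at 511 to 540 had shares of 16% in wildtype, 26.04% and 30.2% (isw2Δ) and 21.3% and 19.9% (ies6Δ). The 5 positions were lower in all mutant libraries and the other 25 higher, in unscaled percent. As levels, the 25 positions lay at 2.30 in wildtype, 2.13 and 2.55 in the isw2Δ libraries and 2.08 and 2.21 in the ies6Δ libraries.

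The windows were compared with limma in a single fit of all 5 libraries, with Benjamini-Hochberg adjustment over the 152 windows and a threshold of 0.05. The standard error of a log2 change was 0.15 against wildtype and 0.12 between the mutants in every window. An exact permutation test of a single window was not run, since the smallest p it allows with 2 libraries and 1 library is 0.333.

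The isw2Δ libraries were higher than wildtype at the left shoulder and in the low stretch of the + side. Of the 13 windows 3 passed the threshold, all of them higher, whereas 46.1% of all 152 windows passed as higher and 4.61% as lower. The median change was 0.21 on the log2 scale over the 13 windows and 0.31 over all windows. The stretch thus held fewer called windows, relative to its size, than the rings as a whole.

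The window at 631 to 660, the trough of the + side, had levels of 0.634 in wildtype and 1.01 in both isw2Δ libraries, a log2 change of 0.67 (adjusted p = 8.4e-05, limma). The isw2Δ libraries differed there by far less than their distance to wildtype. It passed the threshold in 14 of 15 alternative settings, the exception being reverse reads alone (0.38, adjusted p = 0.082, limma). In every window but 511 to 540, these settings include the removal of positions 527 to 531, which leaves the levels of the window unchanged. The window at 691 to 720 had levels of 1.05 in wildtype and 1.36 and 1.48 in isw2Δ (change 0.44, adjusted p = 0.011, limma). The left shoulder had levels of 1.09 in wildtype and 1.39 and 1.54 in isw2Δ (change 0.43, adjusted p = 0.012, limma). In these 3 windows both isw2Δ libraries lay above wildtype and the groups did not overlap. Without isw2Δ replicate 2 the last 2 of them no longer passed, with changes of 0.38 (adjusted p = 0.088) and 0.35 (adjusted p = 0.11) in limma.

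The 4 windows of the NFR did not pass in isw2Δ. At the higher summit, 541 to 570, the levels were 2.99 in wildtype and 3.09 and 3.20 in isw2Δ, a change of 0.07 with a 95% interval of -0.22 to 0.36. At 481 to 510 they were 2.39 in wildtype and 2.69 and 2.63 in isw2Δ, a change of 0.16 with an interval of -0.13 to 0.45. Changes within these intervals were not resolved. At 571 to 600, where the NFR ends, the levels were 1.73 in wildtype and 1.99 and 2.04 in isw2Δ, a change of 0.22 (adjusted p = 0.203, limma).

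The dip was the only window in which both libraries of a mutant lay below wildtype, and this held in both mutants. At 511 to 540 the levels were 2.36 in wildtype, 1.85 and 2.27 (isw2Δ) and 1.89 and 2.00 (ies6Δ), with changes of -0.20 (adjusted p = 0.231) and -0.28 (adjusted p = 0.130) in limma that did not pass. Without positions 527 to 531, an alternative chosen after the data had been seen, the changes were 0.02 and -0.10. In 10 of the 13 windows both libraries of a mutant lay above wildtype, again in each mutant. This was not counted over all 152 windows, whose median change was 0.31 in isw2Δ and 0.21 in ies6Δ. It was therefore not shown to be particular to the stretch.

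The ies6Δ libraries were higher than wildtype at the left shoulder, at the right end of the NFR, in the + side trough and in the linker. Of the 13 windows 5 passed the threshold, all of them higher, where 30.9% of all windows passed as higher and 3.95% as lower. The median change was 0.22 over the 13 windows and 0.21 over all windows. The share of called windows in the stretch was close to that of the rings as a whole.

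The largest of these changes, 0.45 (adjusted p = 0.011, limma), was in the linker at 751 to 780, where the levels were 1.21 in wildtype and 1.63 and 1.69 in ies6Δ. The neighbouring linker window at 721 to 750 had levels of 1.06 in wildtype and 1.39 and 1.31 in ies6Δ (change 0.36, adjusted p = 0.048, limma). The last linker window, 781 to 810, had levels of 0.789 in wildtype and 0.886 and 0.823 in ies6Δ and did not pass (change 0.11, adjusted p = 0.607, limma). The higher level was thus found in the left and middle part of the linker, where both ies6Δ libraries lay above wildtype by more than they differed from each other.

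In the + side trough at 631 to 660 the ies6Δ levels were 0.921 and 0.803, against 0.634 in wildtype (change 0.44, adjusted p = 0.013, limma). Without ies6Δ replicate 1 this change was 0.34 and did not pass (adjusted p = 0.10, limma). At the left shoulder the ies6Δ levels were 1.35 and 1.47 (change 0.38, adjusted p = 0.035, limma), and at 571 to 600 they were 2.16 and 2.28 against 1.73 in wildtype (change 0.36, adjusted p = 0.048, limma). The changes at the left shoulder, at 571 to 600 and at 721 to 750 passed in 8, 6 and 7 of 15 alternative settings and are the least secure. Each of these 3 fell short of the threshold when either isw2Δ library was left out, which lowers only the precision of the shared fit, and without ies6Δ replicate 2 (left shoulder and 571 to 600) or replicate 1 (571 to 600 and 721 to 750).

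**Figure D3:**
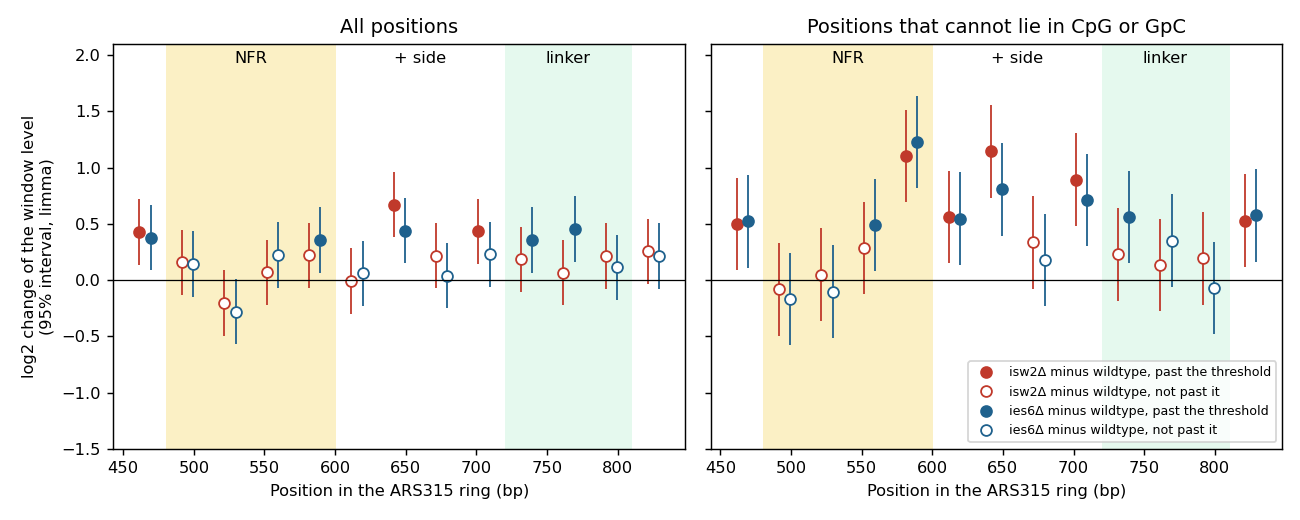
Log2 change in level against wildtype for the 13 windows in isw2Δ and ies6Δ, with 95% intervals from limma, over all positions (left) and over positions between neighbours of the same strand (right). In the left panel the dip at 511 to 540 is the lowest point in both mutants.

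Over positions that cannot lie in CpG or GpC, more windows of the stretch were higher in the mutants. Of the 13 windows 6 passed in isw2Δ and 8 in ies6Δ, all of them higher, where 50.7% and 41.4% of all windows passed as higher. The window at 571 to 600 moved most, with levels of 0.543 in wildtype, 1.26 and 1.08 in the isw2Δ libraries and 1.36 and 1.19 in the ies6Δ libraries, and changes of 1.10 (adjusted p = 3.92e-06) and 1.23 (adjusted p = 4.34e-07) in limma. In the + side trough at 631 to 660 the levels were 0.419 in wildtype, 0.945 and 0.907 (isw2Δ) and 0.797 and 0.674 (ies6Δ), with changes of 1.15 and 0.81. The difference from wildtype at the trough was therefore larger without the possible CpG and GpC positions, as was the median change over all windows. The dip at 511 to 540 had levels of 2.55 in wildtype, 2.45 and 2.85 in the isw2Δ libraries and 2.35 and 2.404 in the ies6Δ libraries, and changes of 0.05 and -0.10.

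The linker window at 751 to 780 behaved differently under this restriction. Its levels over the 8 positions left were 1.27 in wildtype, 1.40 and 1.39 (isw2Δ) and 1.599 and 1.65 (ies6Δ), and the ies6Δ change of 0.35 did not pass (adjusted p = 0.152, limma). Both ies6Δ libraries still had the 2 highest levels. At 721 to 750, over 14 positions, the ies6Δ change was 0.56 and passed (adjusted p = 0.024, limma).

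By the study's Wilcoxon test over positions (threshold 0.025) 7 of the 13 windows passed between the mutants, and 79 of all 152. In limma the window at 751 to 780 was the only one of the 13 that passed between them. Levels of 1.24 and 1.30 in isw2Δ stood against 1.63 and 1.69 in ies6Δ, a difference of -0.39 for isw2Δ minus ies6Δ (adjusted p = 0.031, limma), where 5.26% of all windows passed in either direction. The wildtype level of 1.21 lay just below the isw2Δ libraries. This difference kept its sign in 15 of 15 alternatives, and it was -0.11 with naked plasmid scaling and -0.06 without scaling. It passed in 4 of the 15, among them the removal of positions 527 to 531, which leaves the levels of this window unchanged. It did not pass without isw2Δ replicate 1 (-0.35, adjusted p = 0.28), isw2Δ replicate 2 (-0.42, adjusted p = 0.14) or ies6Δ replicate 2 (-0.36, adjusted p = 0.13) in limma.

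Read over 90 bp, the linker and the + side gave 1 call each. The linker tile at 721 to 810, with levels of 1.02 in wildtype, 1.07 and 1.20 in the isw2Δ libraries and 1.30 and 1.28 in the ies6Δ libraries, was higher in ies6Δ (change 0.34, adjusted p = 0.015, limma), where 34.7% of the 49 tiles of all rings passed as higher. In isw2Δ its change was 0.15 with a 95% interval of -0.08 to 0.38. The tile at 631 to 720, with levels of 0.908 in wildtype, 1.17 and 1.25 (isw2Δ) and 1.14 and 0.972 (ies6Δ), was higher in isw2Δ (change 0.42, adjusted p = 0.00226, limma), where 53.1% of tiles passed as higher. In ies6Δ its change was 0.21 with an interval of -0.02 to 0.45. No tile of the stretch passed between the mutants, where 6.12% of all tiles passed in either direction. Neither mutant was thus shown to act on a stretch that the other left alone.

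The isw2Δ libraries differed from each other by a median of 0.05 on the log2 scale over the 13 windows, and the ies6Δ libraries by 0.15. The largest difference within isw2Δ, 0.41, was at 721 to 750, where the levels were 1.04 and 1.38 and wildtype lay between them. Within ies6Δ it was 0.27, at 601 to 630, where the levels were 1.48 and 1.22 with wildtype at 1.29 between them.

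The linker had a narrow summit. In the running mean it reached 1.51 at position 751 in wildtype, 1.505 and 1.74 in the isw2Δ libraries and 1.96 and 1.95 in the ies6Δ libraries, at position 754 in all mutant libraries. The lowest point in the 30 bp before the summit, at 722 to 726, was 0.750 in wildtype, 0.918 and 0.969 (isw2Δ) and 1.10 and 1.06 (ies6Δ). The right edge of the linker, at mid-height of its summit, lay at 780 in 4 libraries and at 778 in ies6Δ replicate 2. Position and right border of the linker were thus alike in all genotypes in this running mean, while its height was greatest in ies6Δ. On forward reads alone the summit lay at 737 in wildtype and at 744 or 761 in the mutants, and no right edge was found. With a 20-bp running mean it lay at 744 in isw2Δ replicate 2 and at 756 in the other libraries. With at most 80 reads per strand the right edge was at 809 in wildtype and at 778 or 780 in the mutants.

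The ies6Δ summit centred on 6 positions, 753 to 758, which were picked after their values had been seen. Their mean methylated share was 7.45% in wildtype, 16.8% and 13.8% in the isw2Δ libraries and 23.1% and 22.9% in the ies6Δ libraries, and their levels were 1.07, 1.37, 1.17, 2.26 and 2.54 in the same order. Of the 6, 757 was below the filter of 5% for single sites, and each of the other 5 passed in ies6Δ with changes of 0.86 to 1.35 (adjusted p between 0.00875 and 0.0313, limma), while none passed in isw2Δ. Without ies6Δ replicate 1 none of these 5 passed in ies6Δ. Position 756 had shares of 9.74% in wildtype, 21.5% and 17.4% (isw2Δ) and 34.1% and 32.8% (ies6Δ). None of the 6 lies between neighbours of its own strand, so that their base type is not known.

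**Figure D4:**
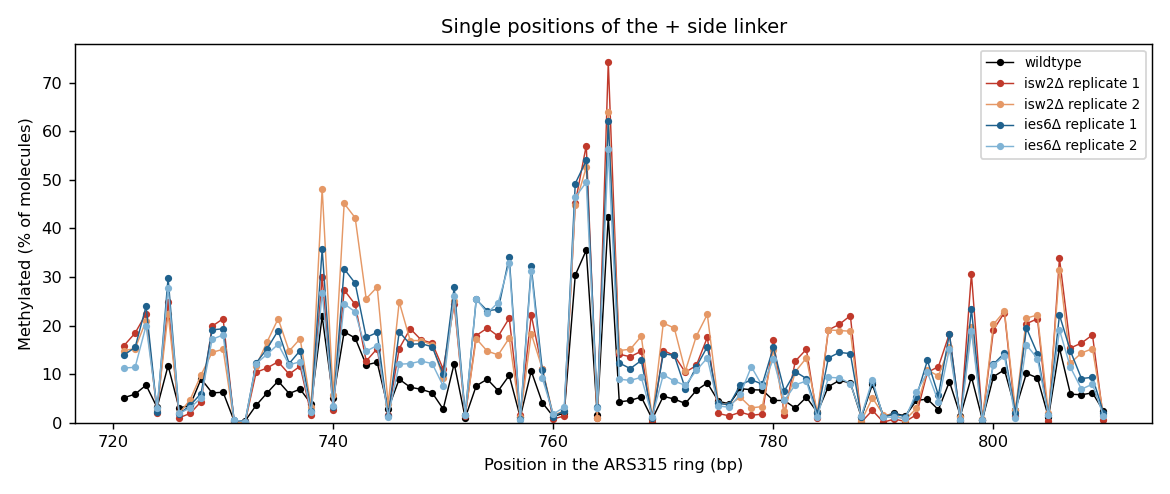
Methylated share in percent at single positions of the linker, by library. At positions 753 to 758, apart from 757, the 2 ies6Δ libraries lie above the isw2Δ libraries and wildtype is lowest.

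Single positions were tested where the mean share over the libraries was at least 5%, which held for 278 positions of the stretch and 3258 of all rings. This mean takes in more mutant than wildtype libraries. A position methylated mainly in the mutants thus met the filter more easily than one methylated mainly in wildtype. In isw2Δ 89 of the 278 were higher and 19 lower than wildtype, where 35.5% and 10.9% of all tested positions were. In ies6Δ 63 were higher and 8 lower, where 23.7% and 8.35% of all tested positions were. Without ies6Δ replicate 1 the stretch held 0 called positions in ies6Δ, and without ies6Δ replicate 2 it held 32. In isw2Δ it held 67 without isw2Δ replicate 1 and 77 without replicate 2. Called positions became fewer over all rings as well in each of these fits, so the fall was not shown to be particular to the stretch. Between the mutants no position of the stretch passed in limma, and 0% of all tested positions did, with 31 and 357 at an unadjusted p under 0.05.

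Higher positions were found in the NFR, on the + side and in the linker in both mutants. In isw2Δ 26 of the 87 tested positions of the NFR, 40 of the 91 of the + side and 13 of the 62 of the linker were higher. In ies6Δ the counts were 20, 20 and 17 of the same positions, and the difference in these counts between the mutants was not tested. Of the positions that were lower, none of the 19 in isw2Δ and none of the 8 in ies6Δ lay between neighbours of its own strand, whereas 89 of the 278 tested did. The higher ones included 30 of 89 and 20 of 63 such positions. Lower positions were thus found only where a CpG or GpC is possible.

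The most methylated positions of the stretch lay in the NFR, 6 of the highest 8 at the higher summit and the other two, 504 and 502, at the lower one. Position 568 was methylated in 67.2% of reads in wildtype, 84.4% and 84.7% in the isw2Δ libraries and 77.9% and 79.2% in the ies6Δ libraries, and position 549 in 53.7%, 83.6%, 82.8%, 76.03% and 75.8% in the same order. None of the 8 positions with the highest mean level (568, 566, 549, 571, 575, 572, 504 and 502) passed the threshold in either mutant. Their levels in wildtype were between 7.71 and 9.66 times the array, and the log2 changes were between -0.46 and 0.04.

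The largest changes of single positions lay outside the summits. Position 653, in the + side trough, was methylated in 1.004% of reads in wildtype, 9.87% and 8.08% (isw2Δ) and 6.67% and 4.62% (ies6Δ), with changes of 2.03 (adjusted p = 0.00275) and 1.69 (adjusted p = 0.00532) in limma. Without ies6Δ replicate 1 its ies6Δ change was 1.53 (adjusted p = 0.053, limma). It had the largest change of the stretch in ies6Δ and the largest rise in isw2Δ among the tested positions. Positions 653, 594 and 595 were below 5% in wildtype and met the filter for single sites through the mutant libraries. A high rank of their changes was thus favoured by the filter. Position 595, at the right border of the NFR and between neighbours of its own strand, had shares of 2.87% in wildtype, 15.9% and 11.2% in the isw2Δ libraries and 14.4% and 11.9% in the ies6Δ libraries (ies6Δ change 1.61, adjusted p = 0.00635, limma). Position 594 beside it had 3.30% in wildtype and 15.9% and 13.3% in ies6Δ. Without ies6Δ replicate 1 neither of this pair passed in ies6Δ (adjusted p = 0.053 for both, limma).

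The largest falls were in the dip and at the end of the linker summit. Position 527 had shares of 34.4% in wildtype, 10.8% and 18.8% (isw2Δ) and 16.5% and 15.5% (ies6Δ), with changes of -2.02 (adjusted p = 0.00431) and -1.54 (adjusted p = 0.0145) in limma. Position 529 had changes of -2.05 and -1.54 from a wildtype share of 26.7%. The ies6Δ changes at 527 and 529 did not pass without either ies6Δ replicate (adjusted p between 0.061 and 0.084, limma). At positions 778 and 779 the fall was seen in isw2Δ, with mean shares of 6.77% in wildtype, 1.67% and 3.21% in the isw2Δ libraries and 8.40% and 9.55% in the ies6Δ libraries. As levels the pair lay at 0.973 in wildtype, 0.136 and 0.271 in the isw2Δ libraries and 0.822 and 1.06 in the ies6Δ libraries. The isw2Δ libraries were thus below the others, and wildtype lay between the ies6Δ libraries.

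Single molecules were most often methylated in the NFR. At least 1 methylated base of the NFR was found on 91.2% of forward molecules in wildtype (95% Wilson interval 88.9 to 93.1), 98.1% and 98.6% (isw2Δ) and 96.3% and 95.9% (ies6Δ). On the + side the forward shares were 65.9% in wildtype (62.3 to 69.3), 86.4% and 88.7% in the isw2Δ libraries and 82.9% and 77.1% in the ies6Δ libraries. In the linker they were 58.4% in wildtype (54.70 to 61.997), 77.1% and 81.03% (isw2Δ) and 80.1% and 76.7% (ies6Δ). An NFR without any methylated base was thus rare in all libraries and least rare in wildtype. These shares depend on the number of called positions (61, 76 and 43 on forward reads) and are not scaled to the array. They rise with the strength of methylation, which over all positions of either spike-in was lowest in wildtype. The intervals cover counting error only.

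The number of methylated bases per molecule varied widely within a library. Forward molecules of wildtype had a median of 6 methylated bases among the 61 called positions of the NFR, and those of the mutants 17, 17, 15 and 15. On reverse molecules the medians were 13 in wildtype and 19, 20, 16 and 16 in the mutants, among 59 positions. The strands of wildtype differed more than those of the mutants. The NFR changes strand in its middle, with 9 or 10 of 30 positions called on forward reads in each window from 451 to 540 and 21 to 23 in each from 541 to 660, so that forward reads describe mainly its right part and reverse reads its left part.

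The NFR and the linker were read together on the same molecules. On forward reads both carried a methylated base in 56.4% of molecules in wildtype, 76.3% and 80.3% in the isw2Δ libraries and 78.1% and 74.4% in the ies6Δ libraries. The NFR alone did so in 34.9% in wildtype, 21.8% and 18.3% (isw2Δ) and 18.2% and 21.5% (ies6Δ). Neither did in 6.74% of wildtype molecules and in 0.641% to 1.79% of mutant molecules. A methylated NFR with an unmethylated linker was therefore more frequent in wildtype than in any mutant library, on forward and also on reverse reads (29.9% in wildtype, 12.4% to 19.9% in the mutants).

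Linkers were methylated more often on molecules with a methylated NFR. In wildtype 61.8% of the 636 forward molecules with a methylated NFR also had a methylated linker (95% Wilson interval 57.96 to 65.5), against 22.95% of the 61 without (14.2 to 34.9). On reverse reads the wildtype shares were 66.95% of 705 and 34.7% of 75. In the mutants the molecules without a methylated NFR numbered 11 to 37 per strand and library, and their shares were between 27.3% and 68.8%, against 77.5% to 87.3% of those with one. The order was the same in all libraries and on both strands. Molecules differ in how strongly they were methylated as a whole, and the part of this in the association was not tested.

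**Figure D5:**
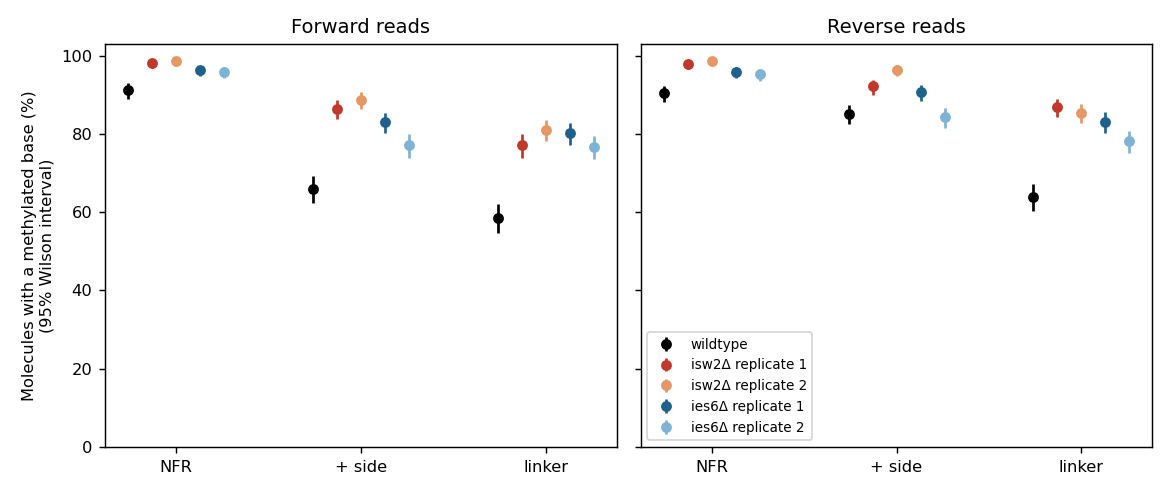
Share of molecules in percent with at least 1 methylated base in the NFR, on the + side and in the linker, by library and strand, with 95% Wilson intervals. Wildtype has the lowest share in the NFR and in the linker on both strands.

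Over positions between neighbours of the same strand wildtype had the lowest molecule shares. Over all positions this did not hold on reverse reads of the + side, with 85.1% in wildtype and 84.2% in ies6Δ replicate 2. In the NFR they were 54.4% on forward and 72.6% on reverse reads in wildtype, 87.2% and 86.5% on forward reads in the isw2Δ libraries and 82.2% and 80% in the ies6Δ libraries. On the + side the forward shares were 38.7% in wildtype, 68.2% in both isw2Δ libraries, and 64.1% and 53.2% in ies6Δ. On reverse reads of the + side, with 8 positions, they were 28.97% in wildtype and 32.4% in ies6Δ replicate 2, whose Wilson intervals overlap, and 44.5% to 55.5% in the other libraries.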

How the data were processed

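Chromatin rings were purified, methylated in vitro, linearised and sequenced by Nanopore (R9.4) in 5 libraries. The authors called methylated adenine and CpG cytosine with Megalodon and set score cutoffs; genome build R64 is named in the processing notes. The deposited tables hold, for each read and position, 0 or 1, so that a column mean is the fraction of methylated reads; per-strand tables were deposited for each origin, the nucleosomal array and the naked plasmid, 60 in all. An incomplete read (1 in all tables) was left out. How adenine and cytosine calls were merged at a position is not given in the sources used here.

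From these, forward and reverse fractions were added per position and divided by the array mean of the library. Means over 30-bp windows and 90-bp tiles, as log2, and single sites of at least 5% (pseudocount 0.05 on the level) were compared with limma 3.58.1 in R 4.3.3, with groups taken from the sample titles, all 5 libraries in 1 fit with 2 residual degrees of freedom and Benjamini-Hochberg adjustment within each comparison. The spread was pooled over windows, so a window cannot show a spread of its own, and the single wildtype library is assumed to vary like the mutant libraries. Profile shapes were read from a 30-bp running mean in Python 3.11.15, and molecule shares were given Wilson 95% intervals. The fits were tested on simulated data. Depth was 697 to 780 reads per strand at ARS315, and counting error was not set against the differences between libraries.

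Single positions were named if they were among the 8 highest in mean level or the 5 with the largest change past the threshold in each mutant; the run 753 to 758 was named after its values were seen. The windows, regions and naming rule were chosen with earlier results of these data known. Alternatives were the scaling, strand, depth, filter, pseudocount, window borders, variance trend, the study's Wilcoxon test over positions, the replicate block and each mutant library left out. Added after the data were seen were positions between same-strand neighbours and the removal of positions 527 to 531.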

Additional observations from a re-analysis of the deposited data

Results flagged for a closer look

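In the limma fit of all 5 libraries without a replicate block, only the window at 751 to 780, in the linker, passed between the mutants. No other window, tile or single position of the stretch did. There isw2Δ minus ies6Δ was -0.39 on the log2 scale (adjusted p = 0.031, limma). The levels were 1.24 and 1.30 in isw2Δ, 1.63 and 1.69 in ies6Δ, and 1.21 in wildtype. The difference passed the threshold in 4 of 15 alternative settings and ranged from -0.46 to -0.06, always with the same sign. Among these 4 is the removal of positions 527 to 531, which leaves the levels of the window unchanged. Groups of 1 or 2 libraries are too small for a test of outlying libraries.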

How the results depend on the processing

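Of 405 alternative values for the changes in the 13 windows 289 kept direction and side of the threshold, 50 no longer passed, 36 newly passed and 30 changed sign; of 120 for the tiles the numbers were 93, 5, 17 and 5. For windows and tiles that do not hold positions 527 to 531, the alternative without these positions left the levels as they were. In a comparison with wildtype, leaving out a library of the other mutant left the change as it was. Such alternatives could not change direction. None of the 116 alternatives for named sites changed sign. Counts below are over all rings, in the order isw2Δ, ies6Δ and isw2Δ minus ies6Δ, and the cause of a change in count was not tested. Windows past the threshold numbered 77, 53 and 8; they were 146 and 105 (first 2 comparisons) without scaling, 22 and 25 with scaling to the whole ring, 0 in ies6Δ with the naked plasmid, 39, 33 and 2 on forward reads, 40 and 2 (first and last) with at most 80 reads per strand, 5 (last) over positions between neighbours of the same strand, and 79 (last) by the Wilcoxon test over positions, which takes neighbouring positions for replicates. Tiles past the threshold numbered 27, 19 and 3; they were 49, 44 and 37 without scaling, 43, 10 and 6 with the naked plasmid, 9, 11 and 5 with the whole ring, 6 and 10 on forward reads, and 36 in ies6Δ over same-strand positions. Single sites past the threshold numbered 1511, 1045 and 0; they were 2901 and 1939 without scaling, 2283 in isw2Δ with the naked plasmid and 972 in isw2Δ with the whole ring, and between the mutants 11 with a filter of 10%, 14 with a pseudocount of 0.2 and 12 with the whole ring.

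The replicate numbers of the mutants are shared by the labels only; same-numbered libraries deviated together with correlations of 0.11 to 0.18. With the replicate block 2 of the 13 windows passed in isw2Δ (3 without it), 2 in ies6Δ (5) and 0 between the mutants (1), with adjusted p of 0.067 at 691 to 720 in isw2Δ, 0.057 at 571 to 600, 0.062 at 631 to 660 and 0.087 at 721 to 750 in ies6Δ, and 0.068 at 751 to 780 between the mutants (limma); neither tile call was kept (0.11 at 631 to 720 in isw2Δ and 0.090 at 721 to 810 in ies6Δ). Over all rings 62, 37 and 6 of the 152 windows passed with the block, and the tile counts were 9, 9 and 0. Of the 3258 single sites 96 passed between the mutants, 15 of them among the 278 of the stretch. The block also turned the ies6Δ change at 601 to 630 from 0.06 to -0.0042. Leaving out 1 mutant library at a time gave, for windows, 50 (without isw2Δ replicate 2) to 82 in isw2Δ and 3 (without isw2Δ replicate 2) to 10 between the mutants; for tiles, 2 to 6 between the mutants, with 6 without ies6Δ replicate 1; for single sites, 886 (without isw2Δ replicate 1) to 1450 in isw2Δ, 83 (without ies6Δ replicate 1) to 1061 in ies6Δ and 0 to 5 between the mutants. Changes near 0 changed sign in such ranges at 601 to 630 (isw2Δ -0.017 to 8.7e-05, ies6Δ -0.077 to 0.20), 661 to 690 (ies6Δ -0.068 to 0.15), 721 to 750 (isw2Δ -0.017 to 0.39) and in the tile 451 to 540 (ies6Δ -0.032 to 0.11).

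Other changes of sign concerned windows and tiles that had not passed. On reverse reads alone the ies6Δ changes were -0.012 at 481 to 510, -0.16 at 601 to 630 and -0.011 in the tile 541 to 630, and the isw2Δ changes 0.090 at 511 to 540, -0.10 at 541 to 570, -0.094 at 571 to 600 and -0.14 in the tile 541 to 630. On forward reads alone the isw2Δ changes were 0.21 at 601 to 630, -0.082 at 721 to 750, -0.15 at 781 to 810 and -0.011 in the tile 721 to 810. With whole-ring scaling isw2Δ had -0.019 at 541 to 570, -0.023 at 751 to 780 and -0.0051 in the tile 451 to 540. With the naked plasmid isw2Δ had 0.13 at 511 to 540 and 0.33 at 601 to 630. Without scaling the dip at 511 to 540 was 0.59 in isw2Δ and 0.19 in ies6Δ, and 601 to 630 was 0.78 in isw2Δ. With at most 80 reads per strand the dip was 0.027 in isw2Δ and 0.012 in ies6Δ, and 601 to 630 was 0.18 in isw2Δ; with only sites of at least 5% the latter was 0.13. Over positions between neighbours of the same strand, 481 to 510 was -0.083 in isw2Δ and -0.17 in ies6Δ, 511 to 540 was 0.050 and 601 to 630 was 0.56 in isw2Δ, and 781 to 810 was -0.069 in ies6Δ. Without positions 527 to 531, 511 to 540 was 0.018 in isw2Δ.

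Shape values are log2 ratios of the mutant mean over wildtype, with no test. The dip level was -0.28 in isw2Δ and -0.40 in ies6Δ; it was 0.22 and 0.052 on reverse reads, and 0.047 (naked plasmid) and 0.058 (same-strand positions) in isw2Δ. Dip over higher summit was -0.27 and -0.55; it was -0.76 and -0.87 on forward reads, 0.36 and 0.042 on reverse reads, 0.022 and -0.23 with 80 reads, and in ies6Δ -0.42 and -0.31 with 20-bp and 50-bp running means and -0.68 over same-strand positions. The linker summit was 0.11 in isw2Δ (0.44 with the naked plasmid, 0.51 with 80 reads) and 0.38 in ies6Δ (0.52 and 0.43 with 20-bp and 50-bp running means, 0.44 naked plasmid, 0.36 whole ring, 0.30 forward, 0.39 reverse, 0.86 with 80 reads, 0.32 same-strand positions). The mid-height width of ies6Δ was -0.75, but 0.082 with the 50-bp running mean, 0.31 on forward and 0.22 on reverse reads, and 0.20 at a level of 1.5. On forward reads the lowest point between the summits (531 in wildtype, 527 in the mutants) was thus deeper in the mutants. On reverse reads it lay at 542 in wildtype and at 520 in the mutants, so its depth was not compared at the same place. The linker summit of ies6Δ was above wildtype on each strand. The naked plasmid of wildtype had 52 reverse reads. An alternative with A:T pairs only was not run, since it needs the placed sequence, and the single wildtype library could not be left out.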
